A study of Caenorhabditis elegans with 12 samples.

Results

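The targets described here are the WAGO-4-bound 22G-RNA features that passed the study's enrichment rule in both the 3×FG strain and its WT counterpart, compared between 3 3×FG IPs and 3 WT IPs. A feature is a gene or repeat together with its biotype, and it was taken as a member when it stood in the target table of each strain. The table of 3×FG listed 4185 features and that of WT listed 4850. They shared 4080, which is 6.47% of the 63014 features that were counted. Another 105 features stood only in the 3×FG table and 770 only in the WT table, and those are not covered here. Of the shared features, 4006 were 22G-RNAs antisense to protein-coding genes, 28 were antisense to pseudogenes and 21 lay on repeats. The remaining features were 16 ncRNA, 3 ncRNA antisense, 3 snoRNA antisense, 2 protein-coding sense and 1 lincRNA feature.

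In C. elegans, 22G-RNAs are short antisense RNAs that begin with G and are made by RNA-dependent RNA polymerases on target transcripts. Argonaute proteins carry them. WAGO-4 is a germline Argonaute of the Z granules, the compartment of germ granules that also holds ZNFX-1, and it acts in the inheritance of RNA interference. Z granules sit beside P granules, perinuclear condensates that hold the Vasa-like helicases of the GLH family. GLH-1, GLH-2 and GLH-4 carry phenylalanine-glycine (FG) repeats of the kind that nuclear pore proteins have, and the comparison asks which WAGO-4 cargo differs once those repeats are mutated or removed.

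The 3×FG strain, labelled SS142, carried glh-1F>A (allele50), glh-4F>A (allele16) and a deletion of the repeats in glh-2, delFG (allele49), all on chromosome I. The WT strain, YY1325, had unedited glh genes. Both strains carried the same tagged Argonaute allele, wago-4(gg620[3xflag::gfp::wago-4]) on chromosome II, so WT here means wild type for the glh genes only. Young adults were grown at 20 °C, WAGO-4 was pulled down from whole-worm lysates through its GFP tag, and small RNAs of the IP and of the lysate (input) were sequenced from 3 biological replicates of each strain. All 6 IPs shared 1 batch label. Values are RPM, the reads of a feature set to a common library total, taken from the deposited tables, in which a target had to reach 5 RPM or more among the IP reads and be enriched over its input by a ratio of 2 or more, with every replicate passing.

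Across the shared targets, the log levels of the 3 3×FG IPs correlated at r = 0.989 to 0.994 with each other and those of the 3 WT IPs at 0.972 to 0.996, while 3×FG and WT IPs correlated at 0.860 to 0.887 (across features, which are not independent replicates). Of 5 germline marker genes, 4 were shared targets (glh-1, pgl-1, oma-1 and cgh-1, but not gld-1), and 0 of 9 muscle, gut, neuron and skin markers were. In bulk libraries from whole worms, fewer cells of a type and less small RNA per cell cannot be told apart.

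The shared targets took 51.5%, 54.7% and 55.2% of the reads in the 3×FG IPs, against 64.0%, 64.5% and 58.8% in the WT IPs. The groups did not overlap, with means of 53.8 ± 1.99% in 3×FG and 62.5 ± 3.15% in WT (SD, n = 3 each), a difference of -8.65 percentage points. A two-sided exact permutation test gave p = 0.1, the smallest value that 3 against 3 libraries allow. Because of this difference in the share of reads, each target was compared on 2 scales. The RPM scale counts a target against all reads of its library, and the scaled values count it against the bulk of the shared targets (TMM factors computed over them). The median log2 fold change, 3×FG over WT, was -0.30 on the RPM scale and 0.01 after scaling, so most values moved upward with the scaling.

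A target was called lower or higher when its adjusted p was below 0.01 and its log2 fold change below -1 or above 1, and it was called held when the 95% interval of its log2 fold change lay within -0.5 to 0.5. On the RPM scale 19.7% of the shared targets were called lower (803) and 0.613% higher (25), and 27.3% were held (1114). After scaling, 13.0% were lower (531), 2.38% higher (97) and 29.0% held (1183). All 531 targets that were lower after scaling were also lower on RPM, and 272 were lower on RPM alone. In the other direction, the 25 higher on RPM were also higher after scaling, and 72 were higher after scaling alone. Of the 1829 targets held on either scale, 468 were held on both. No target was lower on RPM and held after scaling. The scaling divides each library by 1 factor, so this and the nesting of the calls follow largely from the shift between the scales. The remaining 2269 targets were neither called nor held after scaling, so these libraries place them neither among the changed nor among the unchanged. Of the targets called after scaling, 468 of the 531 lower and 56 of the 97 higher kept their call when each of the 6 libraries was left out in turn. The genotypes did not overlap in 68.7% of the shared targets on RPM (2804) and 71.3% after scaling (2909).

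**Figure D1:**
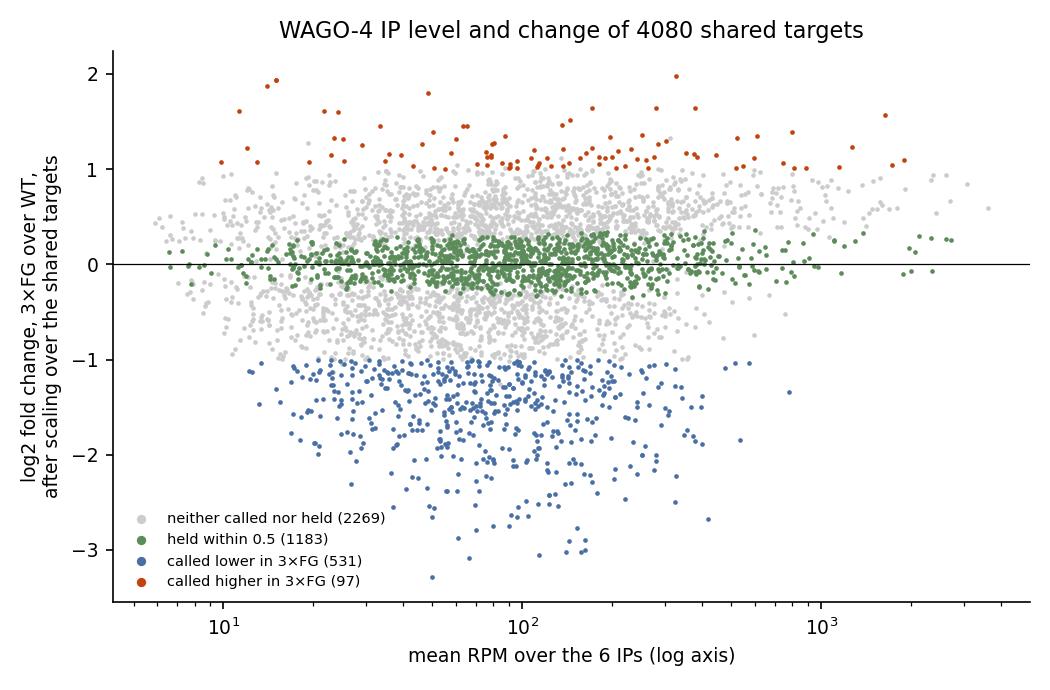
Mean RPM over the 6 IPs (log axis) against the log2 fold change after scaling, 3×FG over WT, for each of the 4080 shared targets. Points below -1 in blue are the 531 called lower, points above 1 in orange the 97 called higher, green points the 1183 held within 0.5, and grey points the 2269 that were neither.

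In the plot of level against change, lower targets are spread over low and middle levels and the most abundant targets lie around and above 0. Ranked by mean RPM into 5 groups of 816 targets, the median scaled change was -0.10, -0.11, -0.06, 0.05 and 0.23 from the least to the most abundant group. Lower calls numbered 88, 128, 128, 120 and 67 over these groups, and higher calls 16, 11, 17, 18 and 35. RPM is not divided by transcript length, so the groups mix length with small RNA density. The rule of 5 RPM in both strains also limits how large a change a target of low mean level can show. The 531 lower targets together took 4.13 to 4.61% of the shared-target reads in the 3×FG IPs, against 13.2 to 14.2% in the WT IPs. The 97 higher targets took 5.80 to 5.89% in the 3×FG IPs, against 2.69 to 2.81% in the WT IPs. The 100 features with the highest mean RPM over the 6 IPs took 24.8 to 25.4% of the shared-target reads in the 3×FG IPs and 18.5 to 19.3% in the WT IPs.

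The called groups were also read against gene structure and position. Median summed exon length was 1626 bases for lower targets, 1200 for higher targets and 1936 for held targets, against 1631 for all shared targets, and the median number of exons was 7, 5, 6 and 6. Genes known only by a sequence name made up 38.2% of lower, 24.7% of higher and 26.7% of held targets, against 31.3% of all. On chromosome V, 15.9% of the shared targets were lower and 1.00% higher (6 of 598). Chromosome X, on which germline genes are sparse, held only 12 shared targets, of which 0 were lower and 3 higher, with a median scaled change of 0.76.

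The targets with the lowest scaled values were mostly genes without a studied role. T23G7.2 (chromosome II, 9167933 to 9172949, coordinates of WBcel235 throughout) had 22.3, 24.7 and 25.03 RPM in the 3×FG IPs, against 202, 252 and 312 RPM in the WT IPs. The 3×FG libraries lay far below the WT libraries, as they did in C04F5.9 (chromosome V, 5114715 to 5119209), which had 24.5, 26.9 and 35.8 RPM in the 3×FG IPs, against 332, 303 and 253 RPM in the WT IPs. The scaled log2 changes were -3.02 ± 0.17 and -2.998 ± 0.14 (SE), with adjusted p = 5e-06 and 2.3e-06. Among genes with a known product, lrr-1 encodes a leucine-rich repeat substrate receptor of a cullin ubiquitin ligase that acts in germline cell cycle progression. The antisense 22G-RNAs of lrr-1 (chromosome II, 5034142 to 5036439) measured 23.02, 26.6 and 32.0 RPM in the 3×FG IPs, against 234, 281 and 264 RPM in the WT IPs. All 3 3×FG libraries were far below all 3 WT libraries, for a scaled log2 change of -2.90 ± 0.13 (adjusted p = 2.1e-06).

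The glutaredoxin gene glrx-22 (chromosome IV, 8200604 to 8201233) had 28.04, 27.3 and 35.6 RPM in the 3×FG IPs, against 230.3, 264 and 387 RPM in the WT IPs, a scaled log2 change of -2.90 ± 0.22 (adjusted p = 1.5e-05). Other metabolic genes belonged to this group. The gene pigc-1 (chromosome IV, 9341964 to 9343152), whose product acts in an early step of GPI anchor synthesis, had 12.8, 10.8 and 8.59 RPM in the 3×FG IPs, against 137, 138.8 and 58.5 RPM in the WT IPs. Here the third WT library was less than the other WT libraries but still above every 3×FG library, and the scaled log2 change was -2.87 ± 0.29 (adjusted p = 6.4e-05). A glutamine synthetase gene, gln-5 (chromosome IV, 17272231 to 17273652), had 10.7, 13.8 and 17.6 RPM in the 3×FG IPs, against 146, 127 and 105 RPM in the WT IPs, again without overlap and with a scaled log2 change of -2.79 ± 0.16 (adjusted p = 5.3e-06). T24A6.17, F40C5.2, F46B6.4 and the pseudogene F08B4.3 completed the 10 lowest, with scaled changes of -3.29, -3.09, -3.05 and -3.02. T24A6.17 and F40C5.2 lie near each other on chromosome V (starts at 3564240 and 3570995). Their inputs were lower too, at -3.85 and -3.36 (edgeR adjusted p = 0.0019 and 0.0014). Their median IP/input ratios were 3.13 and 2.67 in 3×FG, against 3.46 and 3.38 in WT. F46B6.4 and F08B4.3 were also called lower in the inputs. Their ratios were 3.57 and 3.06 in 3×FG, against 10.6 and 10.5 in WT. Whether IP and input changes differ was not tested.

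Higher targets changed less among the shared targets. Each of these had to pass the target rule in both strains, which limits how large a change can appear here. Besides the noncoding gene K07C10.3 (1.98) and the histone gene his-45, described below, the 10 highest included W05H9.2 on chromosome X (chromosome X, 6267039 to 6271094), which had 19.03, 20.05 and 25.6 RPM in the 3×FG IPs, against 7.34, 6.004 and 6.21 RPM in the WT IPs. These are low levels, yet every 3×FG library was above every WT library, and the scaled log2 change was 1.87 ± 0.14 (adjusted p = 1.5e-05). At higher abundance, the zinc finger transcription factor gene lsl-1 (chromosome I, 9901076 to 9902950), which acts in germline development, had 334, 429 and 445 RPM in the 3×FG IPs, against 154, 159.7 and 165 RPM in the WT IPs (scaled log2 change 1.64 ± 0.11, adjusted p = 8.4e-06). F56C9.6 (chromosome III, 7308995 to 7310773) had 591, 499 and 536 RPM in the 3×FG IPs, against 225, 231 and 195 RPM in the WT IPs, with a scaled log2 change of 1.64 ± 0.09 (adjusted p = 5.1e-06). Both genes kept the genotypes apart on RPM as well. B0432.9, M01H9.3 and Y47D9A.1 had scaled changes of 1.80, 1.64 and 1.60, and the pseudogene-antisense features of D1005.t1 and W02F12.1 both 1.61.

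**Figure D2:**
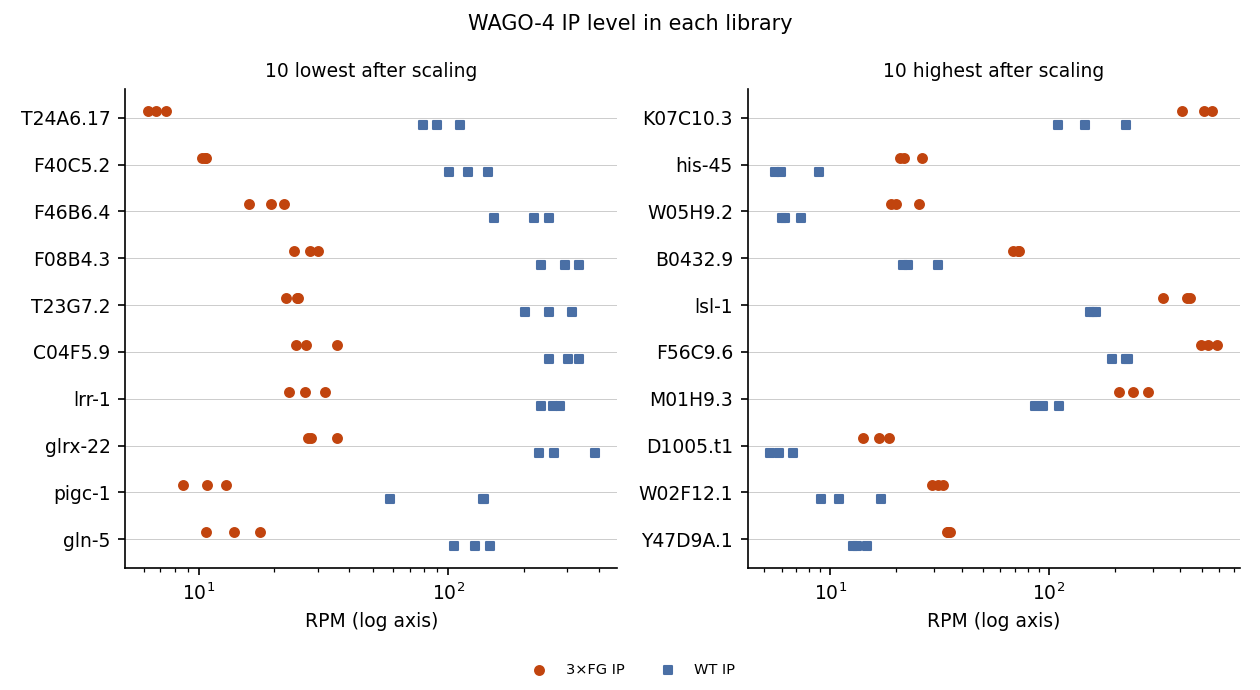
RPM in each of the 3 3×FG IPs (circles) and 3 WT IPs (squares) for the 10 targets with the lowest (left) and the 10 with the highest (right) log2 fold change after scaling, on log axes. Absence of overlap between the genotypes was part of the rule that chose these 20 targets. The separation on the left is wider than that on the right.

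The strip plot of these 20 targets, chosen for lack of overlap, shows libraries of 1 genotype close to each other beside the distance between the genotypes. The most abundant of all shared targets moved much less. The gene cls-2, a CLASP microtubule regulator of the spindle, had 3771, 4041 and 3995 RPM in the 3×FG IPs, against 3742, 3475 and 2672 RPM in the WT IPs. Each 3×FG library was higher than each WT library, but the scaled log2 change was only 0.59 ± 0.09 (adjusted p = 0.00054), short of the fold that a call needed. T12E12.3 (tebp-2), whose product binds telomeres, had a scaled change of 0.84, and inft-2 one of 0.66. For Y48G1C.9 (natc-3), 3×FG replicate 2 stood apart, with 3528, 1977 and 4122 RPM in the 3×FG IPs, against 1791, 1869.9 and 2384 RPM in the WT IPs. Its scaled log2 change was 0.94 ± 0.28 (adjusted p = 0.017), and it was called without that library (1.28) or without WT replicate 3 (1.09).

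Among the 10 most abundant held targets were kinesin and chromatin genes and genes of other roles. Antisense 22G-RNAs of klp-18, a kinesin of the acentrosomal oocyte spindle, measured 2364, 2728 and 2865 RPM in the 3×FG IPs, against 2782, 2723 and 2797 RPM in the WT IPs. The ranges differed little, and the scaled log2 change was 0.25 ± 0.08. The kinesin-13 gene klp-7 had 1826, 1822 and 2120.4 RPM in the 3×FG IPs, against 2254, 2347 and 2005 RPM in the WT IPs, overlapping values with a scaled log2 change of 0.12 ± 0.08. Its minus-end-directed relative klp-16 was at 0.18, the RNA polymerase II gene ama-1 at 0.33, the spliceosomal helicase gene snrp-200 at -0.07, the myosin gene hum-2 at -0.07 and the topoisomerase gene top-2 at 0.27. On the RPM scale, snrp-200 (-0.39) and hum-2 (-0.39) moved downward with the bulk of targets, while ama-1 (0.01) and top-2 (-0.05) stayed near 0. The held status of klp-18, set-26, scc-1, top-2 and ama-1 ended when 1 or another library was left out.

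Gene families were then read against the shares over all shared targets, 13.0% lower, 2.38% higher and 29.0% held after scaling. Lists matched by symbol covered 1424 of the 4080 targets (34.9%), in 41 families with at least 3 members. Members of a family are separate targets, not replicates. For some lists with no call in a direction, counts at an unadjusted limma p under 0.05 are given as well. Lists with calls in both directions are given without such counts, although these can be as large there. At that p, 4 of 30 germ granule genes were lower and 20 higher after scaling. The same count was not made over all shared targets, so these counts have no background to be read against. Whether a list differs from all shared targets in these counts was not tested.

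Of 10 Argonaute genes among the targets, 1 was lower, 1 higher and 3 held. The 26G-RNA Argonaute gene ergo-1 had 34.3, 37.3 and 35.4 RPM in the 3×FG IPs, against 92.0, 100.1 and 92.8 RPM in the WT IPs. All 3×FG libraries were below the WT libraries, and the scaled log2 change was -1.07 ± 0.08 (adjusted p = 1.5e-05). WAGO-4's own gene, wago-4, had 2160.2, 2224 and 2043 RPM in the 3×FG IPs, against 1398, 1331 and 1176 RPM in the WT IPs. Here the 3×FG libraries were the higher ones, with a scaled log2 change of 1.04 ± 0.07 (adjusted p = 7.9e-06) and an RPM change of 0.72 ± 0.09, which was not called. Without WT replicate 3 the scaled change was 0.999, at the limit of the call, and with libraries set to equal sums over the shared targets it was 0.94.

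The other Argonaute genes moved less. The PIWI gene prg-1, whose product carries piRNAs, had 2558, 2767 and 2500.1 RPM in the 3×FG IPs, against 2416, 2388 and 1935 RPM in the WT IPs. Its libraries did not overlap, with a scaled log2 change of 0.54 ± 0.07 (adjusted p = 0.00024), short of the fold limit. The gene of CSR-1, the Argonaute of expressed germline genes, was at 0.28, wago-1 at 0.56, ppw-2 at 0.62 and rde-1 at -0.34. Held were the nuclear inheritance Argonaute gene hrde-1 (-0.12), ppw-1 (0.07) and alg-5 (0.09).

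Among 26 genes of 22G-RNA synthesis and the mutator pathway, 3 were lower, 0 higher (9 at an unadjusted limma p under 0.05) and 11 held, with a median scaled change of -0.03. The related DEAD-box helicases SMUT-1 and MUT-14, which act redundantly in mutator foci, stood at opposite ends of this list. For smut-1 the IPs held 25.7, 29.9 and 38.4 RPM in the 3×FG IPs, against 302, 306 and 213 RPM in the WT IPs. The 3×FG libraries were all far lower, with a scaled log2 change of -2.77 ± 0.15 (adjusted p = 4.4e-06). For mut-14 the IPs held 1238, 1114 and 1163 RPM in the 3×FG IPs, against 818, 803 and 879 RPM in the WT IPs. These 3×FG libraries were all higher, by 0.81 ± 0.10 on the scaled log2 scale (adjusted p = 0.00017), without reaching the fold limit.

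Also lower were eri-9, of the ERI complex that makes 26G-RNAs, at -1.83 ± 0.14 (adjusted p = 1.6e-05), and rde-8, an endonuclease gene of the RNAi pathway, at -1.74 ± 0.09 (adjusted p = 3.7e-06). The RNA-dependent RNA polymerase gene ego-1 had 427, 515 and 456 RPM in the 3×FG IPs, against 678, 636 and 467 RPM in the WT IPs. Its ranges overlapped at the lower end of WT, and the scaled log2 change was -0.02 ± 0.11. Held as well were the polymerase genes rrf-1 (0.22) and rrf-3 (-0.10), the scaffold gene mut-16 (0.27), mut-7 (0.18), rde-12 (-0.04) and dcr-1 (0.02), the Dicer gene.

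Germ granule genes numbered 30, of which 2 were lower, 2 higher and 8 held, with a median scaled change of 0.47 and an RPM median of 0.15. The P granule genes of the PGL family split. The gene pgl-2 had 22.1, 24.8 and 22.9 RPM in the 3×FG IPs, against 80.6, 85.7 and 69.7 RPM in the WT IPs. No 3×FG library reached the WT range, and the scaled log2 change was -1.40 ± 0.09 (adjusted p = 6.5e-06). By contrast pgl-1 was at 0.49 ± 0.07 and pgl-3 at -0.08 ± 0.08, which was held, although on RPM all 3 3×FG libraries of pgl-3 (469.6, 560.4 and 573 RPM in 3×FG, against 769, 718 and 627 RPM in WT) were below WT. The piRNA factor gene tofu-2 was lower (-1.32, adjusted p = 6.1e-05), and tofu-5, whose product acts at piRNA genes, was called higher (1.07) but was at 0.99 without WT replicate 3 and at 0.99 without 3×FG replicate 1.

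The edited helicase genes are themselves targets. The deleted stretch of glh-2 can give no reads in 3×FG. Whether reads of the altered stretches of glh-1 and glh-4 were counted against the reference build was not tested. Values of these genes are therefore not alike over the whole gene in the 2 strains. For glh-4 the IPs held 2591, 2806 and 3236 RPM in the 3×FG IPs, against 1886, 1766 and 1949.8 RPM in the WT IPs. All 3×FG values were higher, with a scaled log2 change of 0.94 ± 0.10 (adjusted p = 7.9e-05). For glh-2, which lacks its repeats in 3×FG, the IPs held 139.3, 125 and 158 RPM in the 3×FG IPs, against 77.2, 82.1 and 94.9 RPM in the WT IPs. The 3×FG libraries were again the higher ones and the scaled log2 change was 1.04 ± 0.14 (adjusted p = 0.00027), but it was 0.93 without WT replicate 1, 0.97 without WT replicate 2 and 0.96 without 3×FG replicate 3, and 0.94 with libraries set to equal sums over the shared targets. For glh-1 the IPs held 685, 741 and 750.5 RPM in the 3×FG IPs, against 771, 693 and 617 RPM in the WT IPs, overlapping ranges with a scaled log2 change of 0.39 ± 0.07 (adjusted p = 0.0015). The gene of the family that was not edited, glh-3, was held at 0.17. The Z granule helicase gene znfx-1 was at 0.44 and was not called.

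**Figure D3:**
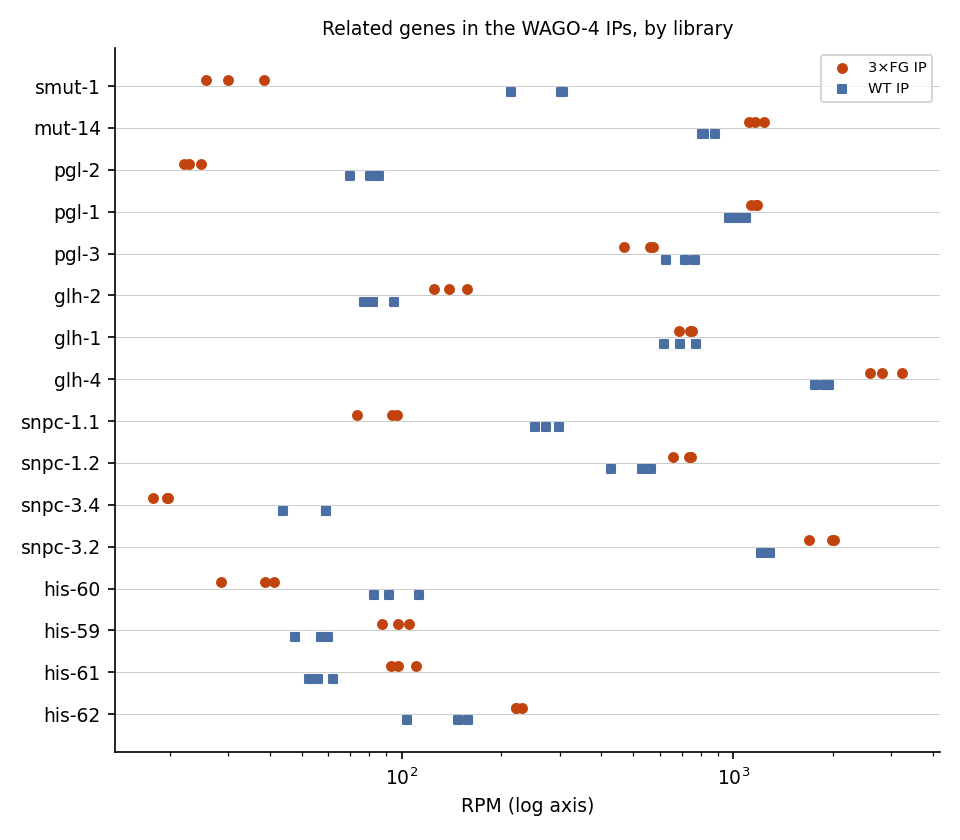
RPM in each 3×FG IP (circles) and WT IP (squares) for sets of related genes, on a log axis: smut-1 and mut-14, 3 pgl genes, 3 edited glh genes, 4 genes of the snRNA-activating complex and the 4 histone genes his-59 to his-62. Within most sets, 1 member lies lower in 3×FG while another lies level or higher.

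A similar split, noticed after the values were seen and so a description only, was present in the snRNA-activating complex, which transcribes small nuclear RNA genes and whose subunit SNPC-4 also acts at piRNA genes. Of its 6 genes among the targets, snpc-1.1 had 73.2, 93.3 and 96.7 RPM in the 3×FG IPs, against 274, 298 and 252 RPM in the WT IPs. These did not overlap (scaled log2 change -1.32 ± 0.10, adjusted p = 1.3e-05), and snpc-3.4 was also lower (-1.14 ± 0.12, adjusted p = 6.6e-05). Their relatives were on the other side of 0 without being called, at 0.82 for snpc-1.2, 0.81 for snpc-3.1 and 0.91 for snpc-3.2, while snpc-4 was held at 0.12. Related genes can share reads where their sequences are alike. The plot of related genes shows sets chosen for their unlike changes. Distinct values in each library do not show that no reads were shared.

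Core histone genes stood on the higher side. Of 18 histone features, 8 were higher, 1 lower and 3 held, with a median scaled change of 0.98 and an RPM median of 0.67. On the RPM scale 4 were higher, and 2 without WT replicate 3. Near-identical histone copies share reads, and several features carried identical values, so that the 18 features hold 13 separate profiles and the 8 higher ones 7. The H3 variant gene his-72 had 285, 236 and 269 RPM in the 3×FG IPs, against 132, 131 and 125 RPM in the WT IPs. Each 3×FG library was above each WT library, with a scaled log2 change of 1.34 ± 0.10 (adjusted p = 1.5e-05). The H3 genes his-45 and his-55, identical to each other in all 6 IPs, were at 1.93, and the H3 gene his-63 was at 1.35.

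Within the histone cluster of his-59 to his-62 on chromosome IV, 3 genes were higher and 1 lower. For his-59, an H3 gene, the IPs held 87.4, 97.8 and 106 RPM in the 3×FG IPs, against 57.2, 59.8 and 47.7 RPM in the WT IPs, for a scaled log2 change of 1.13 ± 0.09 (adjusted p = 1.9e-05). The H2A gene his-61 (1.12) and the H2B gene his-62 (1.05) were called higher with it, although his-62 was at 0.89 without WT replicate 3. The H4 gene of the cluster, his-60, had 41.4, 28.5 and 38.6 RPM in the 3×FG IPs, against 91.7, 82.4 and 113 RPM in the WT IPs. These values ran the other way, with a scaled log2 change of -1.07 ± 0.20 (adjusted p = 0.0017), and the call ended without WT replicate 3 (-0.92) or 3×FG replicate 2 (-0.89).

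Genes of histone methylation and heterochromatin counted 54 targets, 4 lower, 1 higher and 12 held. Lower without exception under left-out libraries were cec-5, a chromodomain gene, at -1.54 ± 0.16, lin-54, a DNA-binding subunit of the DREAM complex, at -1.50 ± 0.07, and wdr-5.3, a relative of the COMPASS subunit gene wdr-5.1, at -1.11 ± 0.11. The H4K20 methyltransferase gene set-1 had 214, 203 and 188 RPM in the 3×FG IPs, against 92.5, 84.1 and 86.0 RPM in the WT IPs. No WT library reached the 3×FG range, and the scaled log2 change was 1.51 ± 0.09 (adjusted p = 6.9e-06). Held members included set-26 (0.27), set-2 (0.03), the H3K9 methyltransferase genes met-2 (0.06) and set-25 (-0.05). On RPM the list had 7 lower genes, and 13 without WT replicate 3.

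Among 26 deacetylase and remodelling genes, 0 were lower (6 at an unadjusted limma p under 0.05) and 3 higher after scaling, while on RPM 5 were lower and 1 higher. The high mobility group gene hmg-1.1 had 71.4, 62.4 and 71.9 RPM in the 3×FG IPs, against 32.8, 31.4 and 31.7 RPM in the WT IPs. It was higher on both scales, at 1.07 ± 0.10 on RPM (adjusted p = 2.4e-05) and 1.39 ± 0.11 after scaling (adjusted p = 1.6e-05). The zinc finger gene mep-1 (1.02) and the linker histone gene hil-4 (1.01) were just past the limit and lost the call without WT replicate 1 (0.97 and 0.98) and without WT replicate 2 (0.97 and 0.98). The call of hil-4 also ended without 3×FG replicate 1 (0.975) or 3×FG replicate 3 (0.979). The Mi-2 remodeller gene let-418 was held at 0.01.

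Targets of the mitotic and meiotic cycle fell into 4 lists. Of 62 DNA replication and repair genes, 5 were lower, 0 higher (22 at an unadjusted limma p under 0.05) and 28 held (45.2%). The structure-specific nuclease gene slx-1 had 69.1, 70.8 and 101 RPM in the 3×FG IPs, against 514, 601 and 582 RPM in the WT IPs. Every 3×FG library was far below WT, with a scaled log2 change of -2.50 ± 0.15 (adjusted p = 5.7e-06). The polymerase theta gene polq-1 (-1.49), rad-50 (-1.44), the replication protein A gene rpa-1 (-1.25) and the ligase gene lig-4 (-1.24) were lower too. Held members included both checkpoint kinase genes, atl-1 (0.14) and atm-1 (-0.15), and the helicase subunit gene mcm-7 (0.21).

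Of 46 cyclin and cell-cycle kinase genes, 5 were lower, 1 higher and 15 held. The cyclin E gene cye-1 had 106, 77.5 and 102 RPM in the 3×FG IPs, against 293, 336 and 309 RPM in the WT IPs. Its 3×FG values were all lower, at a scaled log2 change of -1.39 ± 0.14 (adjusted p = 6.5e-05). The mitotic kinase gene cdk-1 had 1589, 1729.8 and 1642 RPM in the 3×FG IPs, against 929.8, 919 and 789.6 RPM in the WT IPs. Its 3×FG values were all higher, at 1.23 ± 0.06 (adjusted p = 2.8e-06). The Mediator kinase gene cdk-8 was at -1.93.

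Among 48 genes of cohesin, synapsis and crossover formation, 2 were lower, 1 higher and 20 held (41.7%). Lower were rmh-2 (-1.96 ± 0.13) and him-18 (-1.77 ± 0.08), whose products act in recombination intermediates, and with slx-1 the list of lower targets thus included both genes of the SLX-1 and HIM-18 (SLX4) nuclease complex. For him-18 the IPs held 23.4, 24.3 and 26.5 RPM in the 3×FG IPs, against 111, 112 and 101 RPM in the WT IPs. The chromosome axis gene htp-1 was called higher at 1.0997, and was at 0.93 without WT replicate 3. Held were the cohesin genes scc-1 (0.30) and scc-3 (-0.05) and the condensin gene hcp-6 (0.06).

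Kinetochore, centrosome and spindle genes gave 75 targets, 4 lower, 2 higher and 30 held (40%). The centriole assembly gene sas-6 had 9.12, 13.6 and 14.6 RPM in the 3×FG IPs, against 39.2, 44.9 and 46.8 RPM in the WT IPs. The 3×FG libraries lay below WT, with a scaled log2 change of -1.45 ± 0.17 (adjusted p = 0.00012), and the centriole gene sas-1 was at -1.46. The gene spdl-1, whose product recruits dynein to kinetochores, had 2493, 2169 and 2251 RPM in the 3×FG IPs, against 881, 920.5 and 1113 RPM in the WT IPs. It was among the most abundant higher targets, at 1.57 ± 0.14 (adjusted p = 2.8e-05), and the checkpoint gene mdf-2 was at 1.14997. The pericentriolar scaffold gene spd-5 was held at 0.06.

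Of 55 oocyte and germline RNA-binding protein genes, 3 were lower, 2 higher and 22 held (40%). The RNA-binding protein gene rnp-1 had 14.1, 14.6 and 20.5 RPM in the 3×FG IPs, against 122, 124 and 120.5 RPM in the WT IPs. No value of the 3×FG IPs came near the WT values, and the scaled log2 change was -2.53 ± 0.14 (adjusted p = 4.5e-06). The CPEB gene fog-1, needed for sperm fate, was at -1.16 ± 0.13 (adjusted p = 0.00012), and the ataxin-2 gene atx-2 at 1.12 ± 0.07 (adjusted p = 6e-06). The PUF genes of germline stem cell and oocyte control were held, fbf-2 at 0.25 and puf-11 at 0.12. Of 15 eggshell and yolk genes, 2 were lower, the chitin synthase gene chs-1 (-1.30) and egg-2 (-1.17), and 7 were held. Sperm genes gave 3 targets, of which limma called 0 (1 lower and 1 higher at an unadjusted p under 0.05).

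Genes of translation fell into 5 lists, which are given one by one. Of 66 cytosolic ribosomal protein genes, 13 were lower (19.7%, against 13.0% of all), 0 higher (12 at an unadjusted limma p under 0.05) and 11 held, with a median of -0.27 after scaling and -0.59 on RPM. The lowest was rps-17 with 9.12, 10.8 and 14.8 RPM in the 3×FG IPs, against 77.4, 91.1 and 101 RPM in the WT IPs. Both groups were tight and far apart, and the scaled log2 change was -2.56 ± 0.18 (adjusted p = 1.2e-05). At higher abundance rpl-34 had 136.3, 113 and 176 RPM in the 3×FG IPs, against 533, 619.7 and 808 RPM in the WT IPs. The WT libraries differed among themselves here, but all lay above 3×FG, for a scaled log2 change of -1.88 ± 0.22 (adjusted p = 0.00012). Others lower were rps-11 (-2.09), rpl-20 (-2.06) and rpl-16 (-2.001). The most abundant member, rpl-23, was held at 0.10, and the highest of the list reached 0.93. How reads shared between gene copies were split is not given in the sources used here.

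Of 58 mitochondrial ribosomal protein genes, 2 were lower (mrpl-42 at -1.88 and mrpl-39 at -1.67), 1 higher (mrps-14 at 1.27) and 20 held, while on RPM 11 were lower. The gene mrpl-42 overlaps lpl-1 on the same strand, which was lower too (-1.91), and the 2 cannot be fully told apart. The scaled count of lower genes was 3 to 5 with 1 library left out, the most without WT replicate 1, and how this list and the cytosolic list differ was not tested. Translation factor genes numbered 46, with 4 lower, 1 higher and 22 held (47.8%). The gamma subunit gene of the nucleotide exchange factor eIF2B, eif-2Bgamma, had 45.2, 49.3 and 45.3 RPM in the 3×FG IPs, against 166, 199.7 and 137 RPM in the WT IPs. The genotypes did not overlap, and the scaled log2 change was -1.49 ± 0.11 (adjusted p = 1.2e-05). The elongation factor gene eef-1B.2 had 747, 853 and 863 RPM in the 3×FG IPs, against 373, 372 and 465 RPM in the WT IPs. It was the 1 higher member, at 1.35 ± 0.13 (adjusted p = 4.2e-05), while eef-2 was lower at -1.04 and lost that call without WT replicate 1 (-0.97) or 3×FG replicate 2 (-0.96).

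Aminoacyl-tRNA synthetase genes had a scaled median of -0.38 over 27 members, with 4 lower, 0 higher (2 at an unadjusted limma p under 0.05) and 10 held. The mitochondrial leucyl-tRNA synthetase gene lars-2 had 11.1, 8.03 and 10.8 RPM in the 3×FG IPs, against 47.2, 52.1 and 46.5 RPM in the WT IPs. All 3×FG values were below the WT values, for a scaled log2 change of -1.88 ± 0.15 (adjusted p = 1.7e-05). The gene wars-1 was at -1.80, ears-2 at -1.43 and tars-1 at -1.04, the last of which was -0.99 without 3×FG replicate 2. The most abundant member, aars-2, was held at 0.03. On RPM 5 were lower, and 8 without WT replicate 3. None of 30 nucleolar and ribosome assembly genes was called by limma (7 were lower and 13 higher at an unadjusted p under 0.05), and 13 were held.

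Of 66 splicing genes, 3 were lower, 1 higher and 26 held (39.4%). The gene smn-1, whose product assembles spliceosomal snRNPs, had 25.4, 19.2 and 18.8 RPM in the 3×FG IPs, against 84.8, 76.4 and 72.8 RPM in the WT IPs. Every 3×FG library was below WT, with a scaled log2 change of -1.53 ± 0.14 (adjusted p = 4.2e-05). The Sm protein gene snr-5 was at -1.14, sut-1 at -1.94 and the SR protein gene rsp-5 at 1.19, and the core spliceosome gene prp-8 was held at -0.04. Of 59 genes of mRNA 3′ ends, export and decay, 4 were lower, 2 higher and 20 held. Nonsense-mediated decay supplied 2 of the lower ones. For the kinase gene smg-1 the IPs held 15.9, 16.0 and 16.7 RPM in the 3×FG IPs, against 145, 159 and 125 RPM in the WT IPs. The scaled log2 change was -2.75 ± 0.09 (adjusted p = 1.9e-06), and smg-8, whose product binds that kinase, was at -1.51 ± 0.12 (adjusted p = 2.1e-05). The exonuclease gene xrn-2 was held at 0.23.

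Nucleoporin and nuclear transport genes, a list in which only some nucleoporins carry FG repeats, had 46 targets with 2 lower, 2 higher and 20 held (43.5%). The lower ones were ran-4, the carrier that returns Ran to the nucleus, with 215, 163 and 208 RPM in the 3×FG IPs, against 772, 848 and 1012 RPM in the WT IPs, and ran-5. Both had separate genotypes, at -1.84 ± 0.17 (adjusted p = 3.5e-05) and -1.81 ± 0.12 (adjusted p = 9.4e-06). The nucleoporin gene npp-18 (1.13) and the emerin gene emr-1 (1.03) were called higher, and without WT replicate 1 both were at 0.99. The call of emr-1 also ended without WT replicate 3 (0.96) or 3×FG replicate 1 (0.99). The nucleoporin genes npp-3 (-0.11), npp-9 (0.09) and npp-10 (-0.02) were held. Of 66 RNA polymerase and transcription factor subunit genes, 4 were lower, 1 higher and 19 held, and mdt-19 (-1.196), a Mediator subunit gene, was lower beside cdk-8 (-1.93).

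In protein turnover, none of 31 proteasome genes was called by limma on either scale, and 13 were held after scaling. The scaled changes ran between -0.43 and 0.87. At an unadjusted limma p under 0.05, 2 were lower and 15 higher after scaling. That count was not made over all shared targets, so it does not show a shift of this list. The regulatory subunit gene rpn-2 had 393, 385 and 387 RPM in the 3×FG IPs, against 507, 504 and 481 RPM in the WT IPs. On RPM the 3×FG values lay below WT, and after scaling the log2 change was -0.04 ± 0.07, inside the limits for held. Ubiquitin ligase and SUMO genes had 9 lower, 2 higher and 24 held of 81. The BTB and kelch gene kel-3 had 65.9, 71.0 and 77.1 RPM in the 3×FG IPs, against 438, 443 and 359.8 RPM in the WT IPs. These were among the widest gaps of the list, at -2.20 ± 0.08 (adjusted p = 1.9e-06). In the SUMO pathway the protease gene ulp-3 was lower (-2.04 ± 0.11, adjusted p = 3.7e-06) and the conjugating enzyme gene ubc-9 higher (1.22 ± 0.08, adjusted p = 9.3e-06). The most abundant member, the HECT ligase gene eel-1, was held at -0.09.

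Mitochondrial respiration and import genes had 13 lower of 55 (23.6%, against 13.0% of all), 2 higher and 16 held, with a median of -0.15. The assembly factor gene cox-16 of cytochrome oxidase had 25.5, 23.8 and 26.5 RPM in the 3×FG IPs, against 134, 141 and 127 RPM in the WT IPs. The gap between the genotypes was wide, for a scaled log2 change of -2.05 ± 0.09 (adjusted p = 2.1e-06). The gene cox-16 overlaps C24G6.8 on the same strand, which was also lower (-2.02). How reads of the shared stretch were counted is not given in the sources used here, so the change cannot be assigned to cox-16 alone. The import receptor gene tomm-20 had 15.8, 20.1 and 17.4 RPM in the 3×FG IPs, against 72.3, 76.2 and 69.2 RPM in the WT IPs. Its libraries did not overlap either (-1.67 ± 0.10, adjusted p = 5.1e-06), and its partner tomm-22 was at -1.15, whereas the import channel gene tomm-40 was held at 0.15. Other lower members belonged to complex I (nduf-6, -1.54), complex IV (cox-5B, -1.39) and ATP synthase (atp-3, -1.53). The prohibitin gene phb-2 (1.13) and sdhd-1 (1.08) were called higher, at 0.999 for phb-2 without 3×FG replicate 1 and 0.995 for sdhd-1 without WT replicate 2, neither past the limit.

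Chaperone genes had 8 lower of 49 (16.3%), 1 higher and 12 held, with a median of -0.31. The DnaJ genes dnj-16 (-1.79), dnj-8 (-1.39), dnj-3 (-1.34) and dnj-17 (-1.22) made up 4 of the 8. How many of the 49 are DnaJ genes was not counted. Within the CCT chaperonin, cct-2 had 69.8, 71.0 and 74.9 RPM in the 3×FG IPs, against 304, 303 and 233 RPM in the WT IPs. The 3×FG libraries were the lower ones, at -1.62 ± 0.09 (adjusted p = 4.2e-06), while cct-1 was held at -0.10. The gene cct-8 was called lower too, but was at -0.965 without WT replicate 3 and at -0.973 without 3×FG replicate 2. Of the protein disulfide isomerase genes, pdi-1 was lower (-1.41, adjusted p = 3.2e-05) and pdi-6 higher (1.26, adjusted p = 3.5e-05).

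Membrane trafficking genes, the longest list of named genes with 116 targets, had 10 lower, 4 higher and 38 held. The small GTPase gene rab-19 had 17.5, 26.9 and 29.5 RPM in the 3×FG IPs, against 207, 223 and 113 RPM in the WT IPs. WT replicate 3 was the lowest WT library and still far above 3×FG, for a scaled log2 change of -2.49 ± 0.24 (adjusted p = 4.9e-05). The early endosome GTPase gene rab-5 had 86.4, 80.4 and 73.9 RPM in the 3×FG IPs, against 39.9, 41.4 and 37.03 RPM in the WT IPs. Its 3×FG values were all higher, at 1.32 ± 0.10 (adjusted p = 1.4e-05), as were those of the ESCRT gene vps-32.1 (1.29). The exocyst gene sec-10 (-1.65) and the ER exit gene sec-12 (-1.56) were lower, and rab-10 (-0.09) and the clathrin heavy chain gene chc-1 (-0.09) were held. Of 36 protein kinase and phosphatase genes, 3 were lower, 0 higher (19 at an unadjusted limma p under 0.05) and 8 held, and 2 of the lower ones were the Raf gene lin-45 (-1.50) and the TOR gene let-363 (-1.22).

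Gene families that are expanded in nematodes gave few targets. There were 7 F-box, 8 MATH and BATH, 5 nuclear hormone receptor and 10 lectin and detoxification targets. By limma after scaling, 0 F-box targets were called (3 lower at an unadjusted p under 0.05) and 0 lectin and detoxification targets (4 higher at an unadjusted p under 0.05). Among the BATH genes bath-44 was lower at -1.198 and bath-40 higher at 1.17. The 1 lower receptor gene was nhr-274 at -1.09, which was -0.99 without WT replicate 1. Of 31 zinc finger and homeobox transcription factor genes, 3 were lower, 0 higher (8 at an unadjusted limma p under 0.05) and 11 held, led by ztf-17 (-1.64) and ztf-15 (-1.39).

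Pseudogene-antisense targets had the lowest median of the lists with at least 10 members. Of 28, 11 were lower (39.3%, against 13.0% of all), 3 higher and 3 held, with a median of -0.71 after scaling and -1.01 on RPM. F08B4.3 (chromosome IV, 8666252 to 8667177) had 30.01, 24.04 and 27.8 RPM in the 3×FG IPs, against 293, 333 and 234.6 RPM in the WT IPs. Its scaled log2 change was -3.02 ± 0.13 (adjusted p = 2.1e-06). The F-box pseudogene fbxa-124 had 10.5, 9.21 and 12.2 RPM in the 3×FG IPs, against 92.3, 94.3 and 81.3 RPM in the WT IPs. Again no libraries overlapped (-2.65 ± 0.12, adjusted p = 2.3e-06), and the related fbxa-123 was at -1.77 and pqbp-1.2 at -2.55. W02F12.1 had 31.0, 29.4 and 33.001 RPM in the 3×FG IPs, against 9.06, 11.03 and 17.2 RPM in the WT IPs, the opposite order, at 1.61 ± 0.23 (adjusted p = 0.0004). The PIWI-related prg-2, listed as a pseudogene, was held at 0.32. Pseudogenes can share reads with their parent genes.

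Of 23 noncoding RNA targets, 0 were lower (1 at an unadjusted limma p under 0.05), 4 higher and 0 held, with a median of 0.54. K07C10.3 was at 1.98 ± 0.26 and F55A11.13 at 1.27 ± 0.13 (adjusted p = 0.00025 and 7e-05), C06A1.12 at 1.46 and ZK131.14 at 1.09. The call of ZK131.14 ended without WT replicate 3 (0.95). That of C06A1.12 ended without WT replicate 2, 3×FG replicate 1 or 3×FG replicate 3 (limma adjusted p = 0.0103, 0.020 and 0.012). Of 21 repeat features, 2 were lower, 4 higher and 4 held. Simple repeats made up all called ones, and the higher count was 2 without WT replicate 2, 3×FG replicate 1 or 3×FG replicate 3. The Helitron transposon HelitronY1_CE had 1455, 1670.2 and 1669 RPM in the 3×FG IPs, against 2322, 2297 and 1839 RPM in the WT IPs. It was the most abundant repeat and held at -0.10 ± 0.07.

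Genes known only by a sequence name formed the largest group, 1276 targets, of which 203 were lower (15.9%), 24 higher and 316 held (24.8%). On RPM 300 were lower and 6 higher. Their median of -0.06 after scaling was close to that of all shared targets.

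**Figure D4:**
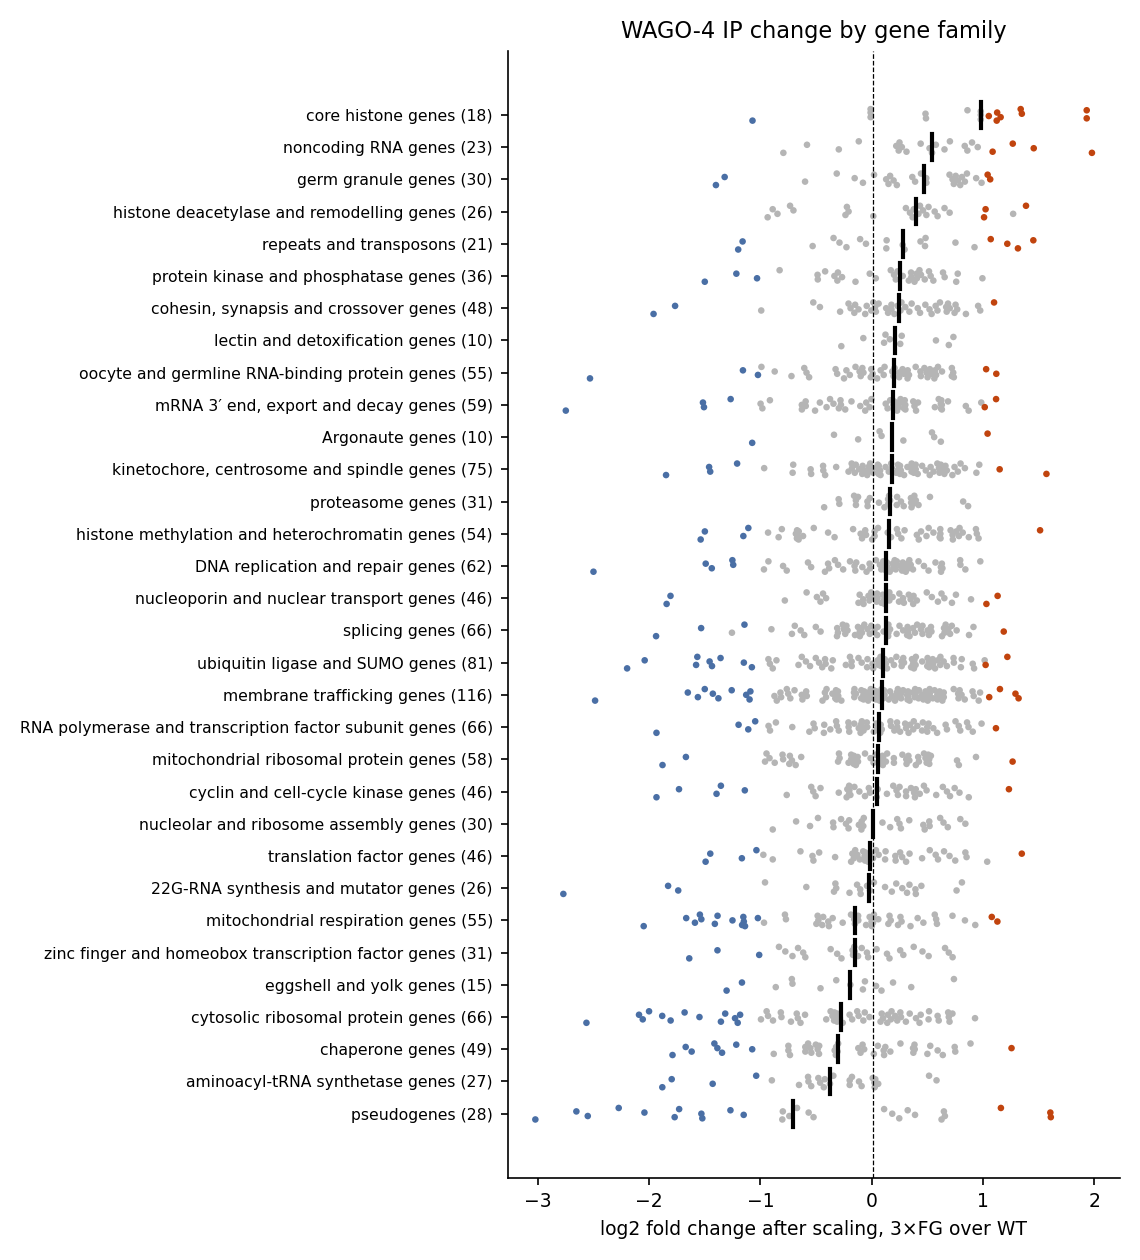
Log2 fold change after scaling, 3×FG over WT, of each member of the gene families with at least 10 shared targets (number of members in brackets), without the genes known only by a sequence name, ordered by their medians (black bars). Blue points are targets called lower, orange points called higher and grey points not called, with pseudogenes lowest (median -0.71) and core histone genes highest (median 0.98).

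Read from top to bottom, the plot of families shows targets on both sides of 0 in every list drawn. Medians lay outside -0.5 to 0.5 in pseudogenes, noncoding RNA genes and core histone genes, and the lists between them had individual targets at a distance from a centre near 0.

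Neighbouring targets were compared next. Among 2502 pairs of neighbouring target genes within 5000 bases of each other, 260 of which overlapped, the scaled changes of the 2 genes correlated at r = 0.063 (across pairs, which share genes). In 54 pairs both genes were lower, of 594 pairs with a lower gene. In 5 both were higher, of 113 pairs with a higher gene, and in 18 the 2 were called in opposite directions. Over all shared targets, 13.0% were lower and 2.38% higher. Whether the pair counts differ from what these shares alone would give was not tested. The pairs named next are examples only. On chromosome I, mom-4, a kinase gene of Wnt signalling, and lsl-1 lie 258 bases apart. The IPs held 15.3, 12.8 and 12.1 RPM in the 3×FG IPs, against 72.7, 78.9 and 67.6 RPM in the WT IPs for mom-4, opposite to lsl-1, with scaled log2 changes of -2.06 ± 0.12 for mom-4 and 1.64 ± 0.11 for lsl-1. On chromosome II, snpc-1.1 (-1.32) and spdl-1 (1.57) lie 264 bases apart and were also called in opposite directions. Pairs called higher together included set-1 with the demethylase gene jhdm-1 on chromosome III (1.51 and 1.39, 2104 bases apart) and glh-2 with C55B7.11 on chromosome I (1.04 and 1.09, 97 bases apart).

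The inputs gave a second readout of the same targets, small RNA of the lysates before the pull-down. This readout is not independent of the choice of targets. Each replicate of both strains had to reach an IP/input ratio of 2 or more. A target whose IP fell far below that ratio while its input stayed level would not be shared. Agreement of IP and input changes is therefore partly built in, and how much was not tested. These libraries differed in depth, with 78826261, 45860107 and 11890545 counted reads in the 3×FG inputs, against 2208475, 5200665 and 20006273 in the WT inputs, and WT inputs 1 and 2 carried another batch label than the other 4. Over the 4078 shared targets with a fitted input value, 0.760% were called lower (31) and 0.123% higher (5) by edgeR on the counts of all features. Those counts depended strongly on the setting. DESeq2 gave 192 lower and 62 higher, and leaving out WT replicate 3 gave 202 and 171, while leaving out 3×FG replicate 2 gave 0 of either (245 lower and 476 higher at an unadjusted p under 0.05). Across targets, input and scaled IP log2 changes correlated at Pearson r = 0.73 and Spearman rho = 0.70, a description over 4078 targets of 1 set of worms. Of the 531 targets lower in the IPs, 500 had an input change below 0 (median -0.71), and 92 of the higher ones with an input value had one above 0 (median 0.89), against a median of 0.15 over all shared targets with 1617 below 0.

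In the inputs, lrr-1 had 4.87, 5.09 and 5.64 RPM in the 3×FG inputs, against 37.6, 28.5 and 20.4 RPM in the WT inputs. The inputs were split as the IPs were, with a log2 change of -2.64 (edgeR adjusted p = 0.0036), and rpl-34 was called as well (-1.59, adjusted p = 0.0031). For sec-6, an exocyst gene that was lower in the IPs (-1.50 ± 0.11), the inputs held 13.3, 14.3 and 17.9 RPM in the 3×FG inputs, against 14.04, 16.5 and 14.2 RPM in the WT inputs. These overlapped, at -0.13 (adjusted p = 0.77). Likewise rps-23 was lower in the IPs (-1.68 ± 0.15) while its inputs held 6.80, 7.21 and 9.18 RPM in the 3×FG inputs, against 4.54, 5.59 and 7.46 RPM in the WT inputs, a log2 change of 0.26 (adjusted p = 0.74). Whether IP and input changes of these genes differ was not tested.

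In the other direction, glh-4 had 392, 446 and 650.4 RPM in the 3×FG inputs, against 162, 211 and 287 RPM in the WT inputs, all higher in 3×FG, at 1.04 (adjusted p = 0.04), and pgl-1 was at 0.58 (adjusted p = 0.099). W02F12.1, higher in the IPs, had 2.86, 3.29 and 2.31 RPM in the 3×FG inputs, against 2.80, 4.65 and 2.26 RPM in the WT inputs, overlapping ranges. Input levels in 3×FG were below all WT inputs for 274 of the 531 targets lower in the IPs, against 435 of all shared targets, and above all WT inputs for 85 of the 97 higher ones, against 1492 of all. With the batch label as a term, edgeR called 52 lower and 9 higher, and in this fit WT input 3 was the only WT library beside the 3 3×FG inputs of its batch.

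**Figure D5:**
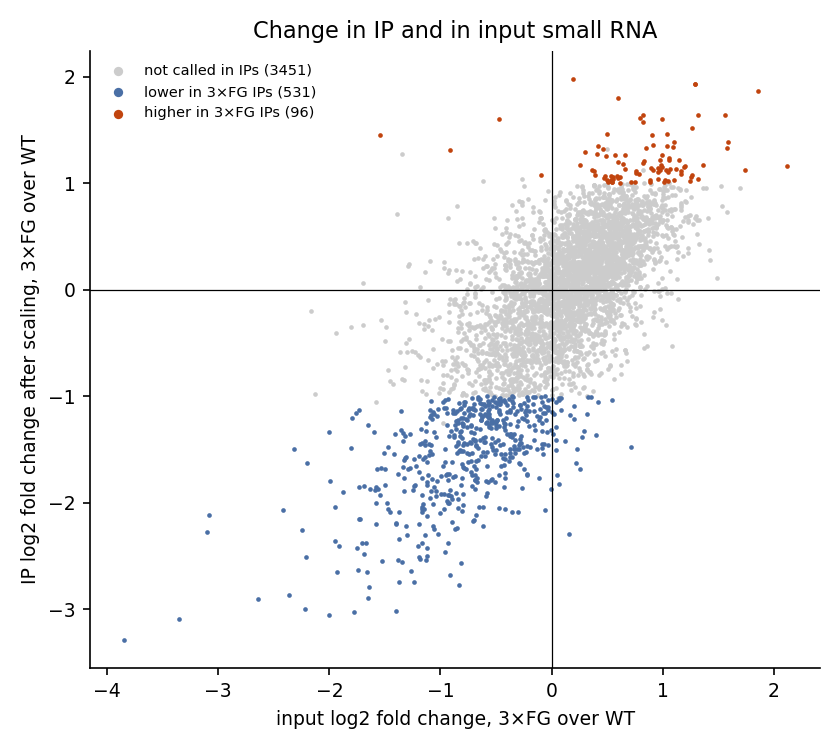
Input log2 fold change (edgeR, horizontal) against IP log2 fold change after scaling (vertical), both 3×FG over WT, for the 4078 shared targets with an input value. Of the targets lower in the IPs (blue), 500 of 531 lie left of 0, and 92 of the 96 higher ones (orange) lie right of it.

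In the plot of IP against input change, the range of input changes at any IP change is wide, and most of the targets called in the IPs stay inside the cloud of the inputs. IP/input ratios moved with the calls. Lower targets had a median ratio of 4.09 in 3×FG and 10.4 in WT, higher targets 8.98 in 3×FG and 10.1 in WT, and held targets 5.90 in 3×FG and 8.78 in WT, against 5.79 in 3×FG and 9.07 in WT over all shared targets. The ratio contains the IP value that made the calls, and it is given as a description only.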

How the data were processed

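22G-RNA features of 6 WAGO-4 IPs and 6 inputs were analysed. Per the submitters' processing notes, cutadapt 1.15 and STAR 2.6.0c were used and the builds ce11 and ce10 are named. The authors deposited RPM values with 0.01 added, the ratio of IP to input RPM, and a matrix of input read counts. Features were paired by gene and biotype. Log2(RPM + 1) was fitted with limma 3.58.1 (limma-trend, R 4.3.3) over all 4080 shared features, with Benjamini-Hochberg adjustment, before and after dividing by TMM factors (edgeR 4.0.16) of 0.858, 0.925 and 0.903 in 3×FG and 1.149, 1.165 and 1.043 in WT. A fold change on this scale understates the change of low targets. Input counts were fitted with edgeR's quasi-likelihood test over 22301 features, with the reads on no feature (4.58 to 6.14%) left out, and with DESeq2 1.42.0 as an alternative. Only 68.1 to 80.6% of IP values were whole multiples of a common step of 0.00646 to 0.0305 RPM (within 0.05 of a step), so whole reads were not recovered, and IP depth is not given in the sources used here. In simulated data of the same size, both steps recovered 200 of 200 features with a log2 change of 2, with 0 false calls in the IP fits and 1 in the input fit, and recovery nearer the limit of 1 was not simulated. Tables were read with pandas 2.3.3, and the permutation test was run with SciPy 1.17.1.

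Members and lists were chosen with earlier results of these data known. Genes were named by rule, counting identical features as 1: the 10 lowest and the 10 highest after scaling without overlap, the 10 most abundant held targets and the 10 most abundant of all, in each family with at least 3 targets the most abundant member and the called member that moved furthest, and glh-1, glh-2, glh-4, wago-4, csr-1, prg-1, ego-1, znfx-1, pgl-1 and pgl-3. Other genes named in the text were chosen after their values were seen. Families were matched by gene symbol, accidental matches were removed and 4 lists (snRNA-activating complex, GPI anchor synthesis, exocyst, sex determination) were added after values were seen. Lists by product name were not used here. Coordinates come from the WBcel235 annotation by gene ID, found for 4058 of 4059 IDs. P-values measure the spread between 3 biological replicates per strain.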

Additional observations from a re-analysis of the deposited data

How the results depend on the processing

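Calls on the IPs moved less with the setting than those on the inputs. With 1 library left out at a time, lower calls ran between 510 and 563 after scaling and 763 and 863 on RPM, higher calls on RPM between 24 and 30, held targets between 965 and 1346 after scaling and 821 and 1238 on RPM, the RPM median between -0.36 and -0.27, and the difference in the share of reads between -10.5 and -7.51 percentage points. The scaled count of higher targets was 76 at the fewest with 1 library left out, 59 among targets of at least 50 RPM, 165 when tested against a change of 0.5, and 62 when libraries were set to equal sums over the shared targets, which left 608 lower and 1262 held. On the last scale wago-4 and glh-2 were not called. Input calls (31 lower, 5 higher) changed with nearly every setting: DESeq2 gave 192 and 62, library totals alone 20 and 10, no filter on low counts 67 higher, batch as a term 52 and 9, and a fit of the shared targets only, chosen after seeing the data, 236 and 38. Without 1 library, they ran between 0 and 202 lower and between 0 and 171 higher, the highest without WT replicate 3. Of 2478 values of named genes under alternatives, 23 lost a lower or higher call, 32 were no longer held, 9 gained a call and 0 changed direction. Causes of these moves were not tested.

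Same-numbered IPs correlated in their deviations at -0.15, 0.31 and 0.20 and inputs at -0.31, -0.02 and -0.26, which showed no steady pairing by replicate number. Names of the input libraries also carry an R number, whose meaning is not given in the sources used here. WT input 3 and 3×FG input 1 share it, and their deviations correlated at 0.38. The other inputs have R numbers found in 1 strain only, so R number and strain cannot be told apart there. With a replicate block, limma called 534 lower and 99 higher after scaling in the IPs, and edgeR called 0 and 0 targets in the inputs (336 lower and 630 higher at an unadjusted p under 0.05). Depth ran from 2208475 to 20006273 counted reads over the 3 WT inputs, and its part in the input calls was not tested.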

Other observations

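Some further gene groups were put together after their values had been seen, and they are given as values only. GPI anchors tie proteins to the outer face of the plasma membrane, and 12 genes of their synthesis were shared targets, of which 5 were lower after scaling, 0 higher and 2 held, with a median of -0.46. Beside pigc-1 (-2.87), the gene pigg-1 had 18.2, 21.3 and 23.6 RPM in the 3×FG IPs, against 174, 192 and 147 RPM in the WT IPs. Every 3×FG library was far below every WT library, at -2.65 ± 0.11 (adjusted p = 2.1e-06). The other lower members were pigv-1 (-1.199), pigk-1 (-1.19) and pign-1 (-1.003), of which pign-1 was at -0.92 without WT replicate 3 and -0.89 without 3×FG replicate 2. Held were piga-1 (-0.18) and pigo-1 (0.01). In the inputs, 2 of the 12 were called lower.

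Of 6 genes of sex determination, 3 were lower, fem-3 (-1.58), fem-1 (-1.57) and fog-1 (-1.16), all of which act for the male fate of germ cells. Held were fem-2 (0.08), which acts for the male fate together with fem-1 and fem-3, and tra-1 (-0.10). For fem-3 the IPs held 127, 126 and 136.2 RPM in the 3×FG IPs, against 449, 517 and 493 RPM in the WT IPs, and for fem-1 they held 60.9, 58.7 and 73.5 RPM in the 3×FG IPs, against 237, 248 and 233 RPM in the WT IPs. Neither gene had overlapping genotypes (adjusted p = 4.8e-06 and 7.9e-06). Of 6 exocyst genes, which tether secretory vesicles to the plasma membrane, sec-10 (-1.65) and sec-6 (-1.50) were lower and exoc-7 (-0.14) and exoc-8 (0.15) held.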
